A study of Mus musculus with 2 samples.

Results

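The Ms4a genes encode small membrane proteins, and 6 of them were followed here in immune cells from mouse tumours: Ms4a4b, Ms4a4c, Ms4a6b, Ms4a6c, Ms4a6d and Ms4a7. They are 6 of the 19 Ms4a genes among the 32285 genes of the deposited tables. These 6 were taken because their levels in the same tables were already known to differ between cell types and between the libraries, so the values below describe that pattern and no test was made of it. MC38 cells, a mouse colon carcinoma line, were inoculated into WT mice and Ifnar1-SA mice, no treatment was given, and immune cells were taken from the tumours on day 14. One 10x droplet library was made from wild-type mice and 1 from mice carrying the Ifnar1-SA genotype, named after the gene Ifnar1. Both groups carried the same tumour line. The age of the mice, the number of mice pooled and any sort before loading were not given in the sources used here. With 1 library per genotype, no p-value across mice could be had, and every interval below is a 95% interval that covers counting error only.

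MS4A proteins span the membrane several times, and the best known of them is CD20, the B cell antigen encoded by Ms4a1. Many act beside other receptors of the cell surface and change how strongly those receptors signal. Ms4a4b is known as a T cell protein that associates with the costimulatory receptor GITR. Ms4a4c, Ms4a6b, Ms4a6c and Ms4a6d are found in myeloid cells, several of them as genes that respond to interferon, and Ms4a7 is used as a marker of macrophages. Type I interferon signals through a receptor of which Ifnar1 is a chain.

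The 6 genes lay in 1 stretch of chromosome 19 (mm10 coordinates, GENCODE M21 models). Ms4a7 ran from 11321039 to 11336146 on the minus strand. It was followed on the plus strand by Ms4a4c (11404770 to 11427246), Ms4a4b (11443553 to 11467055), Ms4a6c (11469366 to 11482192) and Ms4a6b (11516512 to 11531256). Ms4a6d closed the row on the minus strand (11586604 to 11604849). Close copies stood out in the coding sequences: Ms4a4b and Ms4a4c were 91.7% identical, Ms4a6b and Ms4a6d 79.8%, Ms4a6b and Ms4a6c 74.0%, and Ms4a6c and Ms4a6d 66.8%. The other pairs were 44.0% to 50.8% identical.

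The bases before the start sites are shown for 4 members, because the close copies share stretches there as well as in the coding sequence while Ms4a7 does not. Each line gives the 250 bases before a RefSeq start (GRCm38.p6), 5′ to 3′ on the gene's own strand. The Ms4a4c window lies inside the GENCODE gene model, before an inner start. Capitals mark the longest run shared within a pair of copies: 20 bases common to Ms4a4b and Ms4a4c, and, in Ms4a6c, 48 bases that recur before Ms4a6b. The Ms4a7 line has no capitals, since its longest run in common with any other member's window was 9 bases.
Ms4a4b (chr19:11443308-11443557, plus strand): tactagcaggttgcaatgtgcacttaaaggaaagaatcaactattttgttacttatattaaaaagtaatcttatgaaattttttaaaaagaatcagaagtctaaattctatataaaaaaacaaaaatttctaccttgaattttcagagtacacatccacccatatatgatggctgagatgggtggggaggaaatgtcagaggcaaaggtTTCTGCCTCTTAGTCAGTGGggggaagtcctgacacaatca
Ms4a4c (chr19:11407411-11407660, plus strand): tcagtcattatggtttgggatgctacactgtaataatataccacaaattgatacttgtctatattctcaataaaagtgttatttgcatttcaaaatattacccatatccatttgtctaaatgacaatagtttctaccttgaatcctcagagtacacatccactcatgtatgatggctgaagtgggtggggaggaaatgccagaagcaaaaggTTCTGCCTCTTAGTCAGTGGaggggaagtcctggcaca
Ms4a6c (chr19:11469118-11469367, plus strand): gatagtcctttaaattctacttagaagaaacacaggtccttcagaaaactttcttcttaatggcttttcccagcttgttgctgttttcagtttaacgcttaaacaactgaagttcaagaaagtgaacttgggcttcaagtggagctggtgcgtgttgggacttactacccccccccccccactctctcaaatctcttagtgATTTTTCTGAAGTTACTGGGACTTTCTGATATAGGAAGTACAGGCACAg
Ms4a7 (chr19:11336147-11336396, minus strand): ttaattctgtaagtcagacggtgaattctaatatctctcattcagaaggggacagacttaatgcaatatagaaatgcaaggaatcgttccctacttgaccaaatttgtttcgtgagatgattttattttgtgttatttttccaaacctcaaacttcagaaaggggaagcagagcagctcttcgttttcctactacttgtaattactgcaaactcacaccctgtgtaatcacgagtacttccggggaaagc
The windows of Ms4a4b and Ms4a4c were 67.9% identical over 268 aligned positions, and the shared run began 41 and 38 bases before their starts. Promoter windows were found for 5 of the 6 members. They were searched on both strands for 3 motifs. The core of the interferon-stimulated response element, 2 copies of GAAA with any 2 bases between them, occurred in 2.98% of 32851 mouse promoter windows of the same length. TTCNNNGAA, the letters bound by STAT dimers, occurred in 7.02%. A composite of ETS and IRF letters, GGAA and GAAA with any 2 bases between them, occurred in 2.30%. None of the 3 was found in a member's window, which says only that these letters are not in these 250 bases. The ETS-type word AGGAAGT, looked for after the sequences had been seen, was present in 7.69% of all windows. It occurred in Ms4a6b, at 86 and 43 bases before the start, and in Ms4a6c at 17 bases.

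The likeness of the copies matters for counting, because 10x reads come from the 3′ end and an aligner cannot place a read that fits several genes equally. Of the 351 words of 50 bases in the last 400 bases of the transcript, Ms4a4c shared 53 with Ms4a4b, and Ms4a6c shared 47 with Ms4a6b. The other 4 members shared 0 words of that length under the same count. Levels of Ms4a4c beside abundant Ms4a4b, and of Ms4a6c beside Ms4a6b, are therefore uncertain to an extent that was not tested.

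The libraries held 55497066 UMIs in WT and 62732220 in Ifnar1-SA, a UMI being 1 captured transcript. Cells were taken as barcodes of 1000 UMIs and 500 genes or more with 10% or less of mitochondrial UMIs, and these numbered 4058 and 5001, and 7 of the barcode sequences occurred in both. The labels call the cells CD8 T cells, but the largest gate in each library was that of macrophages, so cells were assigned from their transcripts. CD8 T cells (1008 and 681 droplets) had at least 2 UMIs of Cd3e, Cd3g and Trac and at least 2 of Cd8a and Cd8b1. Regulatory T cells (Treg, 344 and 487) had the same T cell minimum and a Foxp3 UMI. Macrophages (1418 and 1977) had at least 20 UMIs of C1qa, C1qb and C1qc. Monocytes (171 and 272) had at least 2 UMIs of Ly6c2, at least 10 of Lyz2 and fewer than 20 of C1q. Droplets that passed more than 1 of these gates (229 and 421) were kept out. Each gate carried its own marker list, with every marker at 20 CPM or more (CPM, the UMIs of a gene per 1000000 UMIs of its gate). Foxp3 was at 0 in the CD8 T gate, as the gates require. The lists include genes that set the gates, and 20 CPM did not separate the gates. All 5 monocyte markers also reached it in CD8 T cells (summed 1567 in WT, 2048 in Ifnar1-SA) and in macrophages (10196, 8049). All 6 macrophage markers reached it in monocytes (8544, 10692). A further fact touches every comparison of the genotypes: the WT library held 1 CD8 T droplet with Y-linked transcripts and no Xist, against 131 of 681 in Ifnar1-SA, so only the Ifnar1-SA library held many cells of both sexes.

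The 6 genes divided the tumour's immune cells by lineage, and the same pattern was seen in each library. Ms4a4b was highest in T and NK cells, Ms4a6c, Ms4a6d, Ms4a4c and Ms4a7 in myeloid cells, and Ms4a6b was abundant in both. Between monocytes and macrophages, Ms4a7 was higher in macrophages and the other 5 in monocytes, Ms4a4b being low in both. Ms4a4b and Ms4a4c were higher in CD8 T cells than in Treg cells, although with droplets of several gates let in the log2 ratio of Ms4a4c turned to -0.32 in WT and -0.11 in Ifnar1-SA. Levels are CPM from UMIs summed over the droplets of a gate, and they were compared between cells and libraries for 1 gene at a time.

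**Figure D1:**
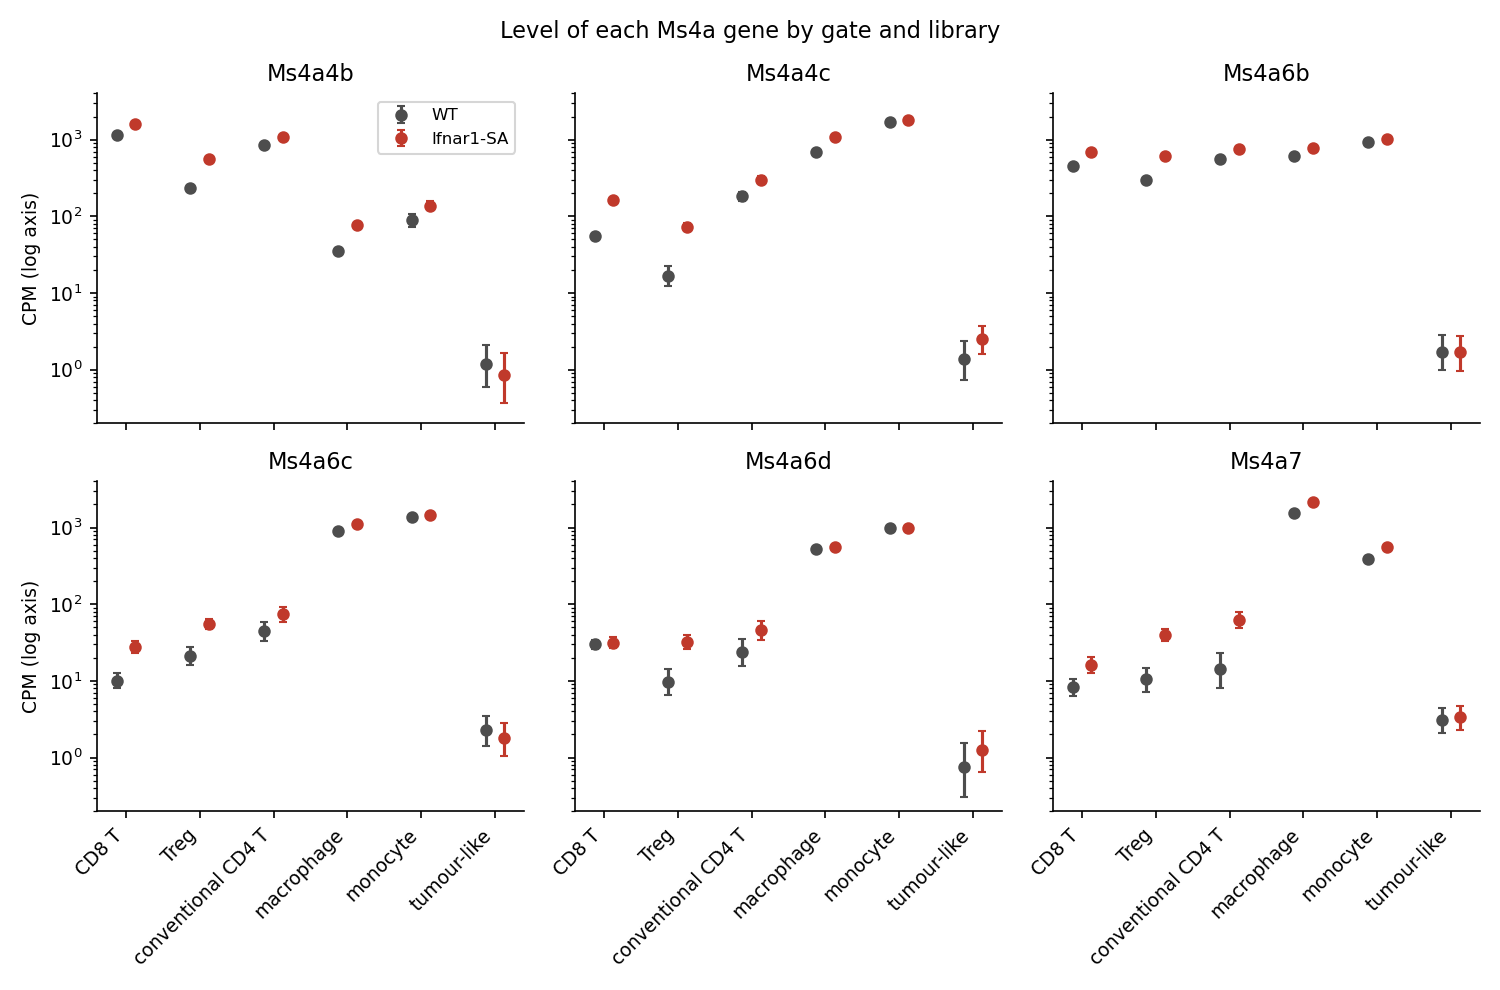
Level of each Ms4a gene (CPM, log axis) in each gate, 1 point per library with its 95% Poisson interval, which covers counting error only. Ms4a4b was high in T cells, Ms4a7 in macrophages, Ms4a6b in both lineages, and all 6 genes were at 3.37 CPM or below in tumour-like droplets.

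Ms4a4b, the T cell member, stood at 1139 CPM in WT CD8 T cells and 1625 in Ifnar1-SA CD8 T cells. Conventional CD4 T cells came next, at 862 and 1070.1. Treg cells had 237 and 563. The few NK droplets, 11 in WT and 10 in Ifnar1-SA, had 1381 and 1485, with intervals that overlapped those of the CD8 T cells. Monocytes had 89.7 and 138, and macrophages 35.8 and 77.3. The order CD8 T, conventional CD4 T, Treg, monocyte, macrophage was thus the same in both libraries. At a depth thinned to 2000 UMIs per droplet, 83.1% of WT and 91.9% of Ifnar1-SA CD8 T droplets had an Ms4a4b UMI, against 34.9% and 53.3% of Treg droplets and 4.95% and 12.2% of macrophage droplets.

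Ms4a7, the macrophage member, was at 1568 CPM in WT macrophages and 2178 in Ifnar1-SA macrophages. Monocytes had 389 and 555. Every T cell gate was far lower, with 8.24 and 16.3 in CD8 T cells, 10.5 and 39.99 in Treg cells, and 14.2 and 63.0 in conventional CD4 T cells. Macrophages exceeded CD8 T cells 190.3-fold in WT and 134-fold in Ifnar1-SA, but the CD8 T levels lay near those that macrophage RNA in the droplets would carry, given further on. The log2 ratio ranged over the alternatives from 2.56 to 8.18 in WT and from 1.63 to 7.65 in Ifnar1-SA, lowest with droplets of several gates let in. Macrophages exceeded monocytes 4.03-fold and 3.92-fold, and Ms4a7 was the 1 member that was lower in monocytes. After thinning, an Ms4a7 UMI was seen in 82.7% and 88.3% of macrophage droplets, 26.5% and 37.1% of monocyte droplets, and 1.84% and 3.09% of CD8 T droplets.

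Of the 4 main gates, Ms4a4c was highest in monocytes, at 1696 CPM in WT and 1804 in Ifnar1-SA, followed by macrophages at 700 and 1084. Among T cells it was present in conventional CD4 T cells (184 and 302), lower in CD8 T cells (54.7 and 161) and lowest in Treg cells (16.8 and 72.9). Type 2 dendritic cells, recognised by Cd209a, had 1402 and 3187, but only 8 and 11 droplets stood behind these values. Macrophages exceeded CD8 T cells 12.8-fold in WT and 6.71-fold in Ifnar1-SA. The CD8 T level differed more between the libraries than the macrophage level did.

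Ms4a6c and Ms4a6d followed the same myeloid order. Ms4a6c stood at 1362 CPM in WT and 1442 in Ifnar1-SA monocytes, at 911 and 1118 in macrophages, and at 10.1 and 27.6 in CD8 T cells. Macrophages exceeded CD8 T cells 90.1-fold and 40.5-fold for this gene. Ms4a6d had 994.6 and 979.97 in monocytes, 524 and 553 in macrophages, and 29.96 and 31.5 in CD8 T cells. Its gap between macrophages and CD8 T cells was 17.5-fold and 17.6-fold, and its levels were close in both libraries in each of these 3 gates.

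Ms4a6b was the member shared by both lineages. It was at 459 CPM in WT and 697 in Ifnar1-SA CD8 T cells, 299 and 615 in Treg cells, 559 and 762 in conventional CD4 T cells, 620 and 781 in macrophages, and 926 and 1026 in monocytes. Macrophages and CD8 T cells differed by a log2 ratio of 0.44 in WT and 0.16 in Ifnar1-SA, the smallest lineage difference of the 6 genes. In droplets with markers of tumour cells (Rhox5), whose median depth was many times that of T cells, Ms4a6b was at 1.72 and 1.68.

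Counted by lineage, 5 of the 6 members passed a 4-fold difference between macrophages and CD8 T cells in both libraries, 4 of them higher in macrophages and Ms4a4b lower. Of 5741 genes with enough UMIs, 16.2% did so, 10.6% higher and 5.57% lower. Between monocytes and macrophages, 1 member, Ms4a7, passed a 2-fold difference in both libraries, beside 6.29% of 4994 genes (2.84% higher in monocytes, 3.44% lower). Ms4a4c and Ms4a4b came near it, with log2 ratios of 1.28 and 1.33 in WT but 0.74 and 0.83 in Ifnar1-SA. Between CD8 T and Treg cells, 3 members passed 1.5-fold in both libraries, beside 18.3% of 5329 genes (5.25% higher in CD8 T cells, 13% lower). Ms4a4b (log2 2.27 in WT, 1.53 in Ifnar1-SA) and Ms4a4c (1.71, 1.15) were higher in CD8 T cells. Ms4a6c was lower there (-1.07, -1.003). With the droplets of several gates let in, 1 member in place of 5 passed between macrophages and CD8 T cells, and 1 in place of 3 between CD8 T and Treg cells. The members had been chosen for differences of this kind, so nothing is read from these shares.

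Droplets also carried RNA of other cells, and this bears on the low values. Macrophage markers (C1qa, C1qb, C1qc, Apoe, Csf1r and Adgre1) summed to 252 CPM in WT and 315 in Ifnar1-SA CD8 T cells, and to 272 and 526 in Treg cells, with 4 of the 6 at 20 CPM or more and none at 0. T cell markers (Cd3e, Cd3g, Cd3d, Trac, Trbc2 and Lck) summed to 124 and 227 in macrophages and to 226 and 337 in monocytes. In each case the foreign RNA was higher in the Ifnar1-SA library. If foreign RNA had the composition of the other lineage, the level it would carry can be computed from its markers, and this carried level was set beside each observed one.

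**Figure D2:**
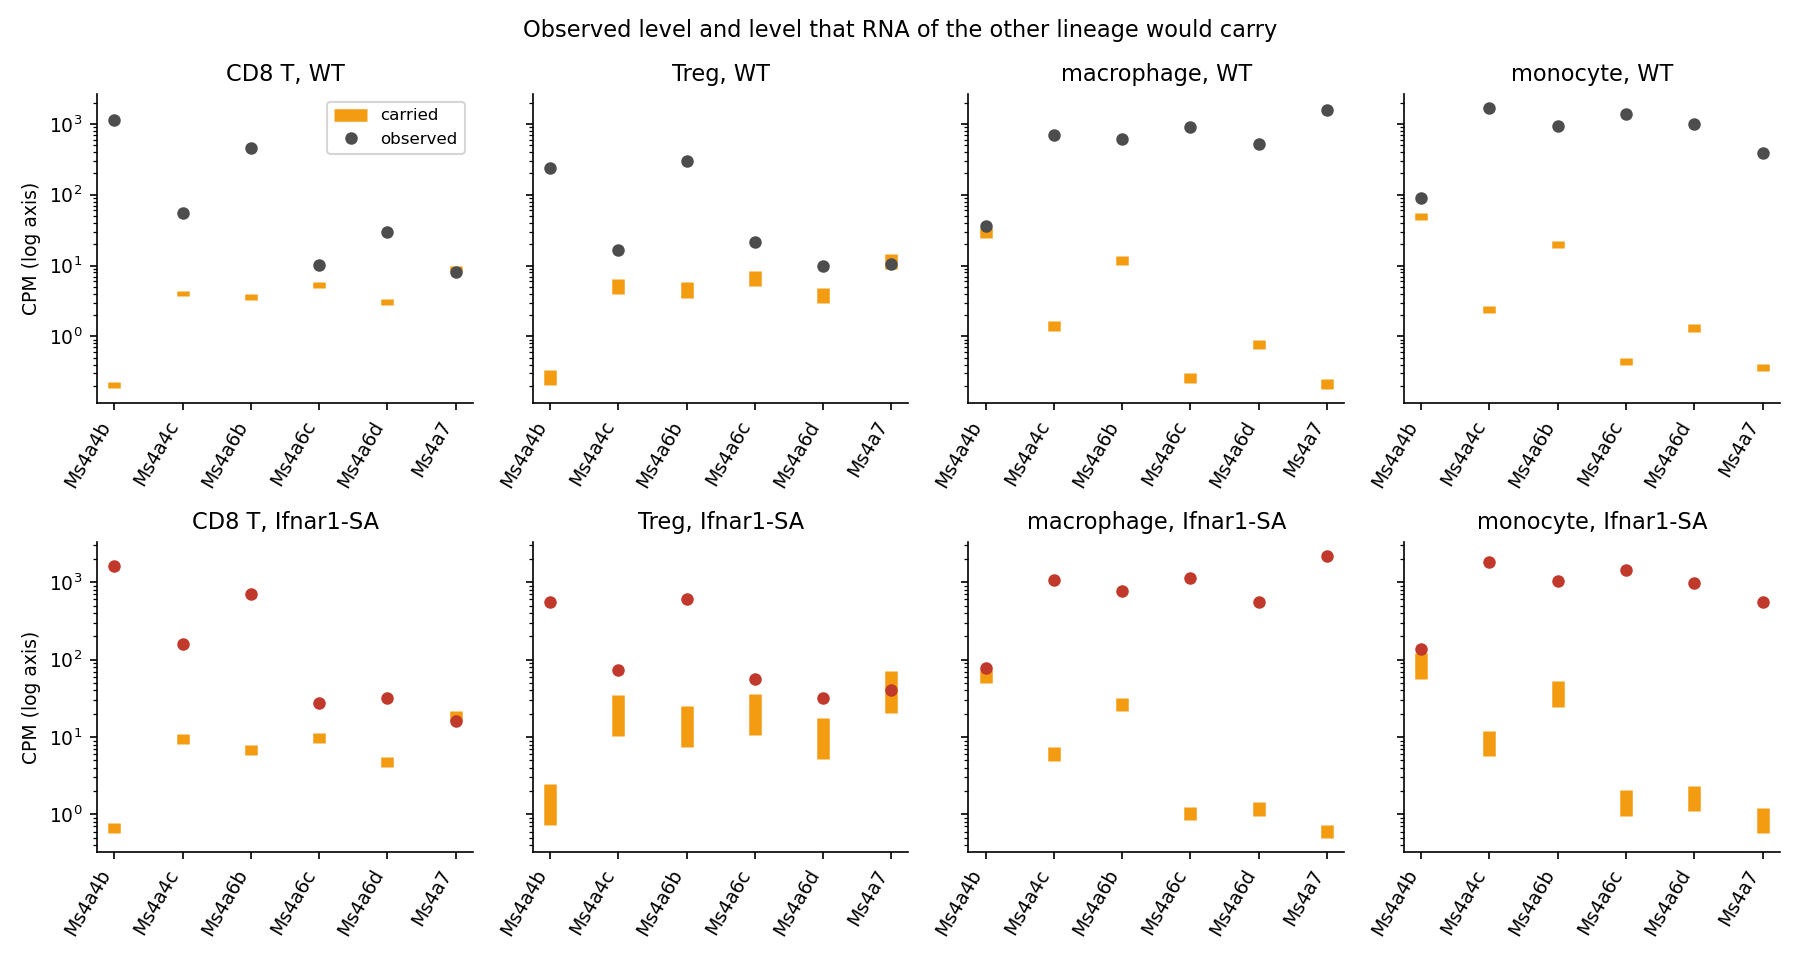
Observed level of each Ms4a gene (points, CPM, log axis) and the level that RNA of the other lineage would carry (bars, the range over 3 marker references), by gate and library. Ms4a7 points lie at the carried range in CD8 T and Treg cells, and Ms4a4b points lie at or above it in macrophages and monocytes.

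Ms4a7 in CD8 T cells was observed at 8.24 CPM in WT, against a carried level of 8.30 to 9.95, and at 16.3 in Ifnar1-SA, against 16.2 to 21.8. In Treg cells it was observed at 10.5 against 8.90 to 14.6, and at 39.99 against 20.5 to 70.3. Ms4a7 thus lay just under the carried range in WT CD8 T cells and within it in the other 3 cases. Carried levels were not computed for conventional CD4 T cells. Ms4a4c in CD8 T cells was well above it, with 54.7 observed against 3.70 to 4.44 in WT and 161 against 8.07 to 10.8 in Ifnar1-SA. In Treg cells Ms4a4c was observed at 16.8 against 3.97 to 6.53 and at 72.9 against 10.2 to 35.0. Ms4a6b exceeded its carried level, at most 25.2, in CD8 T and Treg cells of both libraries. Ms4a6d in CD8 T cells also lay above, at 29.96 against 2.77 to 3.33 and 31.5 against 4.12 to 5.53. In the other direction, Ms4a4b in macrophages was observed at 35.8 against 24.9 to 34.2 in WT and at 77.3 against 49.9 to 73.8 in Ifnar1-SA, close to what T cell RNA would carry.

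Most members were higher in the Ifnar1-SA library in T cells and in macrophages. Of the 4 main gates, Ms4a6d was an exception outside Treg cells. Its log2 ratio was 0.07 in CD8 T cells and 0.08 in macrophages, and with the Y-linked Ifnar1-SA droplets alone it was -0.08 in each. In conventional CD4 T cells its ratio was 0.95 (0.25 to 1.67), from 27 UMIs in WT and 52 in Ifnar1-SA. Ms4a4b in myeloid cells was another exception. Its sign turned with T cell RNA by Cd3e, Cd3g and Trac subtracted, the only reference subtracted there. By Trbc2 and Cd3d, its excess over the carried level was larger in Ifnar1-SA. In Treg cells all 6 passed a 1.5-fold difference, beside 3.78% of 5558 genes higher, 4.25% lower and 8.02% either way. In CD8 T cells 4 did (Ms4a4c, Ms4a6b, Ms4a6c and Ms4a7), beside 2.74% of 5260 genes higher, 2.95% lower and 5.68% either way. In macrophages 2 did (Ms4a4b and Ms4a4c), beside 1.8% of 5066 genes higher, 1.01% lower and 2.8% either way. In monocytes 1 did (Ms4a4b), beside 11.7% of 5046 genes higher, 3.49% lower and 15.2% either way. None was lower by that margin in any of the 4 gates. With 1 library each, these are differences between libraries, and genotype, sex of the mice and library preparation cannot be told apart.

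**Figure D3:**
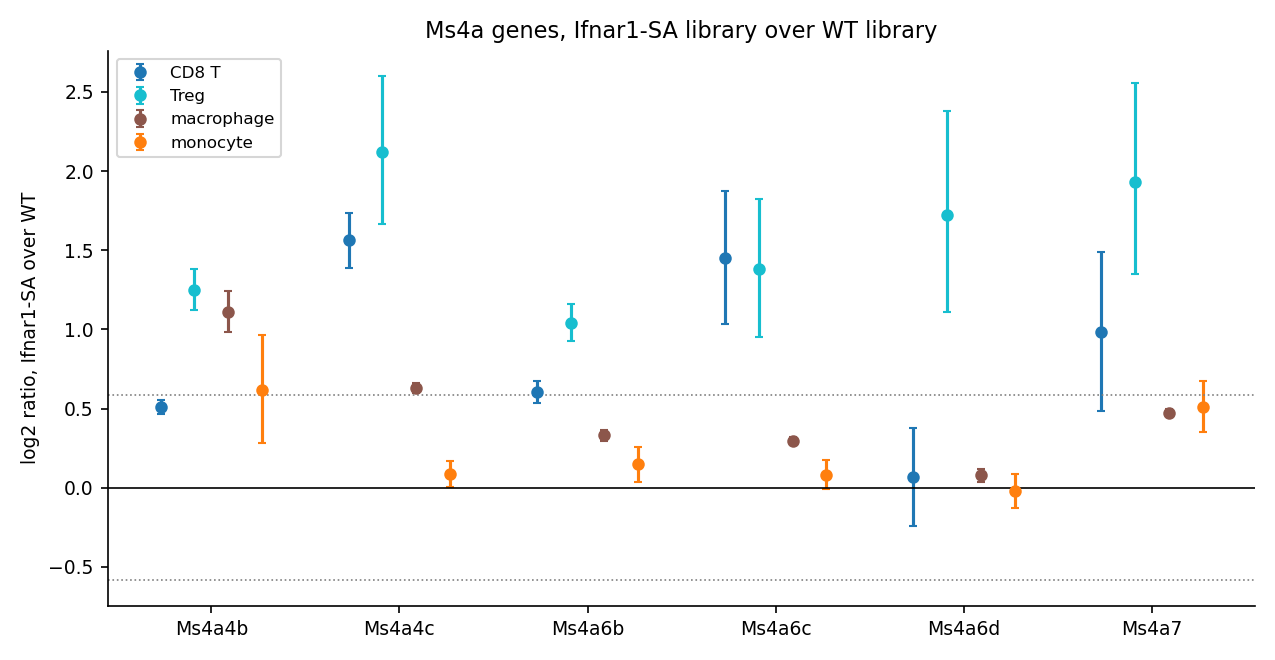
Log2 ratio of the Ifnar1-SA library over the WT library for each Ms4a gene in each gate, with the 95% interval of the ratio (counting error only). The ratios run from 1.04 for Ms4a6b to 2.12 for Ms4a4c in Treg cells, and from -0.02 for Ms4a6d to 0.62 for Ms4a4b in monocytes.

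In Treg cells, Ms4a4b was at 237 and 563 CPM, a log2 ratio of 1.25 (1.12 to 1.38). Ms4a6b went from 299 to 615, a log2 ratio of 1.04 (0.92 to 1.16). Ms4a4c went from 16.8 to 72.9, a log2 ratio of 2.12 (1.67 to 2.60). The Ms4a4c value rested on few droplets, since 5 of them held 60.4% of the 48 WT UMIs and 36.3% of the 237 Ifnar1-SA UMIs. The myeloid members Ms4a6c (21.3 and 55.4), Ms4a6d (9.78 and 32.3) and Ms4a7 (10.5 and 39.99) had log2 ratios of 1.38, 1.72 and 1.93. The summed macrophage markers also differed between the libraries in this gate, as given above, and their part in these 3 ratios was not tested. In Treg droplets with fewer than 3 C1q UMIs and fewer than 3 Lyz2 UMIs, the Ms4a6c ratio was 0.37 and that of Ms4a6b was 1.06. In those droplets the ratios of Ms4a4b, Ms4a4c, Ms4a6d and Ms4a7 were 1.29, 1.32, 1.26 and 1.09. With the 23 Y-linked Ifnar1-SA droplets alone, Ms4a4c had 0.48 and Ms4a6b 0.39, both short of 1.5-fold. Ms4a6d and Ms4a7 were under 50 CPM in both libraries in this gate, so they drop out where members under 50 CPM are left out. The median log2 ratio was 1.55 over the members and -0.02 over all genes.

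In CD8 T cells, Ms4a4c went from 54.7 to 161 CPM, a log2 ratio of 1.56 (1.39 to 1.74), the widest in this gate. Ms4a6b went from 459 to 697, a log2 ratio of 0.60 (0.53 to 0.67), just past the 1.5-fold mark. Ms4a4b, at 1139 and 1625, had a log2 ratio of 0.51 (0.47 to 0.56) and fell just short of it. Ms4a6c had 10.1 and 27.6, above carried levels of 4.82 to 5.78 and 8.33 to 11.2, and a ratio of 1.45. That ratio ranged from 0.48, with the Y-linked Ifnar1-SA droplets alone, to 2.05, with carried RNA subtracted, and 5 droplets held 32.0% of the Ifnar1-SA UMIs. Ms4a7 had 8.24 and 16.3 and a ratio of 0.98, at its carried level. Ms4a6d had 29.96 and 31.5, with a ratio of 0.07 (-0.24 to 0.38) whose interval spans 0. The members' median was 0.79 and that of all genes 0.01. Ms4a7 did not reach the minimum level for the count over all genes, so 5 of the 6 members were among them. With members under 50 CPM left out, 2 members passed in CD8 T cells.

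In macrophages the widest ratio among the myeloid members was that of Ms4a4c, from 700 to 1084 CPM, with a log2 ratio of 0.63 (0.60 to 0.66). Ms4a7 went from 1568 to 2178, a log2 ratio of 0.47 (0.45 to 0.50), short of 1.5-fold. Ms4a6b (0.33) and Ms4a6c (0.30) were higher by less, and Ms4a6d had a ratio of 0.08 (0.04 to 0.12). The median in this gate was 0.40 over the members and 0.07 over all genes, of which 68.2% were higher. The Ms4a6d ratio thus lay at the median of all genes. Ms4a4b, the T cell member, had the ratio 1.11, beside T cell markers that summed to 124 and 227 CPM. With the carried level by Cd3e, Cd3g and Trac subtracted, its log2 ratio was -1.48. By Trbc2 (carried 24.9 in WT, 49.9 in Ifnar1-SA) and Cd3d (34.2, 68.4), the excess over the carried level was larger in Ifnar1-SA. The sign thus rested on the reference, and no direction is given for Ms4a4b in macrophages. Under the TMM and median-of-ratios scalings 1 member passed in place of 2.

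In monocytes the myeloid members differed little. Ms4a4c was at 1696 and 1804 CPM, a log2 ratio of 0.09 (0.01 to 0.17). Ms4a6c was at 1362 and 1442, with a ratio of 0.08 (-0.01 to 0.18). Ms4a6d was at 994.6 and 979.97, with a ratio of -0.02 (-0.13 to 0.09). Ms4a7 differed more, at 389 and 555, with a log2 ratio of 0.51 (0.35 to 0.68), although 5 droplets held 37.4% of its WT UMIs. Ms4a4b had 89.7 and 138, a ratio of 0.62 that became -1.11 with T cell RNA by Cd3e, Cd3g and Trac subtracted. By Trbc2 and Cd3d, its excess over the carried level was larger in Ifnar1-SA. The median over all genes was 0.12, the same as over the members. Under TMM scaling, which moves all genes in this gate by 0.14, Ms4a4c had -0.05 and Ms4a6c -0.06, so no direction is given for these genes. The count of members past 1.5-fold in monocytes ranged from 0 to 2 over the alternatives.

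A list of 17 interferon-inducible genes (among them Isg15, Ifit1, Irf7 and Rsad2) gave a measure for the same contrast. In CD8 T cells 14 of them were tested, all 14 were higher in Ifnar1-SA, and 2 passed 1.5-fold, with a median log2 ratio of 0.36. In Treg cells 17 of 17 were higher and 16 passed, with a median of 1.04. In macrophages 17 of 17 were higher and 3 passed, with a median of 0.38. In monocytes 11 of 17 were higher and 1 passed, with a median of 0.02. Over all genes tested, 52.0% were higher in CD8 T cells, 47.0% in Treg cells, 68.2% in macrophages and 63.8% in monocytes. Those at least 1.5-fold higher were 2.74%, 3.78%, 1.8% and 11.7%, in the same order. The monocyte count of 11 of 17 lay near the share over all genes. For the list as for the Ms4a genes, the median was thus highest in Treg cells and lowest in monocytes. The list and the members were measured in the same 2 libraries, so the likeness is a description.

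Droplets of each gate were next divided into 3 groups by the share of their UMIs from that list, with the same limits for both libraries. Ms4a4c followed the list most closely in myeloid cells. In macrophages it was at 372, 719 and 1410.1 CPM from the lowest to the highest group in WT and at 498, 978 and 1659 in Ifnar1-SA. In monocytes it was at 893, 1866 and 3166 in WT and at 947, 1699.9 and 2727 in Ifnar1-SA. Ifnar1-SA had more macrophages in the highest group (804 of 1977, against 328 of 1418 in WT). Within groups, the log2 ratio of Ms4a4c between the libraries was 0.42, 0.44 and 0.23 in macrophages, each below the 0.63 of the whole gate, and 0.09, -0.13 and -0.22 in monocytes.

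**Figure D4:**
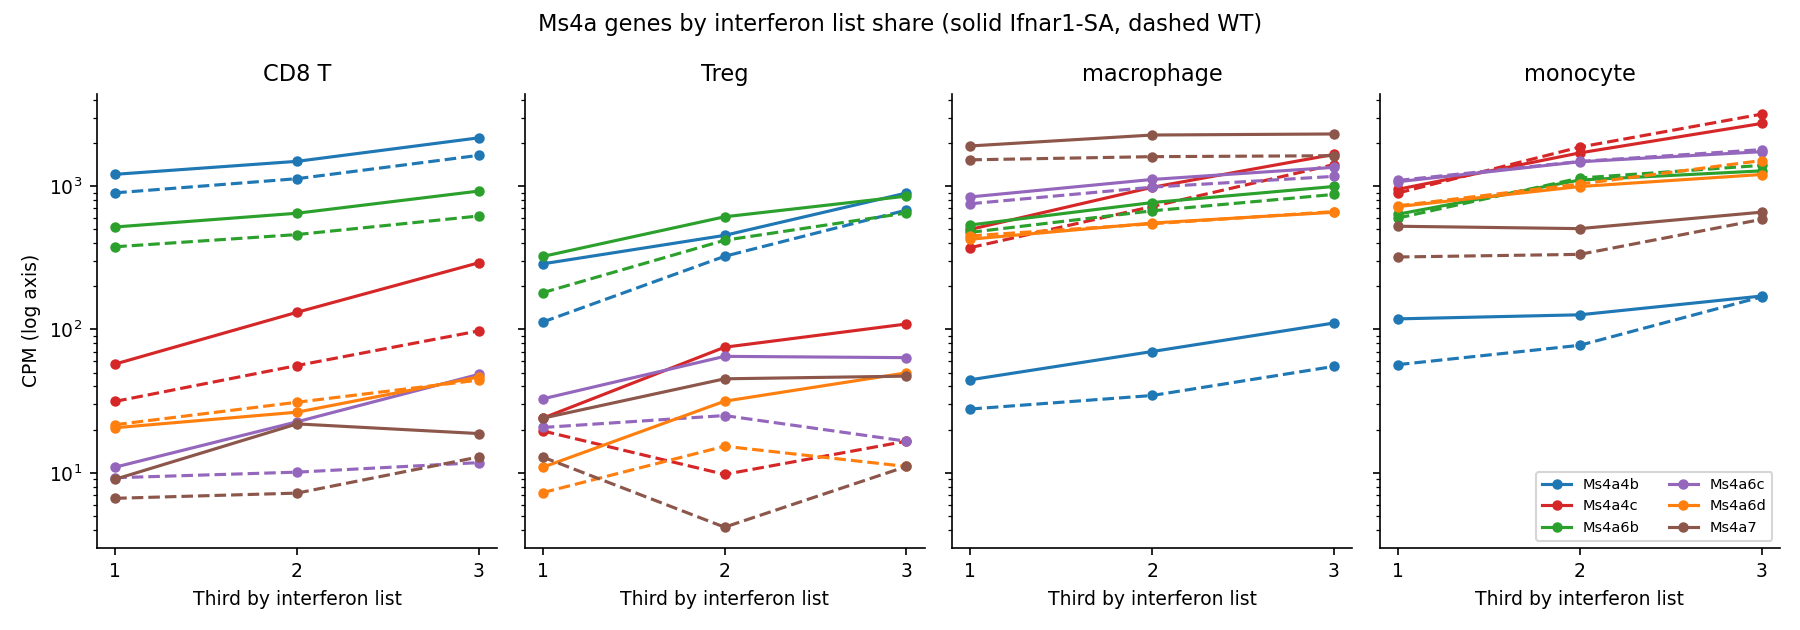
Level of the Ms4a genes (CPM, log axis) in 3 groups of each gate by the share of UMIs from 17 interferon-inducible genes, dashed for WT and solid for Ifnar1-SA. Ms4a4c is higher from group to group in macrophages, monocytes and CD8 T cells of both libraries, while Ms4a7 in WT macrophages lies between 1521 and 1625.

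The other myeloid members differed in how far they followed the list. From the lowest to the highest group of macrophages, Ms4a6b went from 475 to 873 CPM in WT and from 534 to 992 in Ifnar1-SA. Ms4a6c went from 752 to 1166 and from 839 to 1348. Ms4a6d went from 449 to 663 and from 425 to 656, and within the groups its library ratios were -0.08, 0.02 and -0.02. Ms4a7 differed least in WT, at 1521, 1600.4 and 1625 in WT and 1901, 2265 and 2303 in Ifnar1-SA. Its library ratios of 0.32, 0.50 and 0.50 were about as wide within the groups as the 0.47 of the gate. The difference of Ms4a7 between libraries was present in each of the 3 groups. Whether the shares were alike between the libraries inside a group was not tested.

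In CD8 T cells, Ms4a4c was at 31.5, 56.0 and 97.7 CPM across the 3 groups in WT and at 57.4, 132 and 292 in Ifnar1-SA. The library ratio widened from 0.87 through 1.23 to 1.58. Ms4a4b was at 895, 1124 and 1635 in WT and 1205, 1485 and 2166 in Ifnar1-SA, with nearly even ratios of 0.43, 0.40 and 0.41. Ms4a6b went from 377 to 617 and from 518 to 921. In Treg cells, Ms4a4b was at 113, 323 and 679 in WT and 286, 452 and 892 in Ifnar1-SA, so its library ratio narrowed from 1.35 to 0.48 and 0.39. Ms4a6b in Treg cells showed the same narrowing, with ratios of 0.84, 0.54 and 0.39. Ms4a4c in Treg cells was not higher along the list in WT, at 19.6, 9.76 and 16.6 from 35, 7 and 6 UMIs, but was in Ifnar1-SA, at 24.1, 75.1 and 109. Cycling droplets, which express Mki67 and Top2a, became fewer across the groups, from 31.4% to 24.7% of WT CD8 T cells and from 42.9% to 15.9% of WT Treg cells. They also became fewer in Ifnar1-SA, from 19.7% to 13.2% and from 42.0% to 8.88%. The part of cycling in these gradients was not tested.

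The states of CD8 T cells differed in their levels of Ms4a4b, Ms4a6b and Ms4a4c. Droplets were split into cycling cells (285 in WT, 115 in Ifnar1-SA), non-cycling cells with the chemokine Xcl1 (125, 177), non-cycling cells rich in the cytotoxic protease Gzmb (192, 126) and the rest (406, 263). These states were set by minimum UMI counts, so depth enters the split. The median UMIs were 12174, 6731, 5944.5 and 3784 in WT and 9653, 6146, 5240.5 and 3210 in Ifnar1-SA. The part of depth in these levels was not tested. Ms4a4b was lowest in cycling cells, at 950.1 and 1306 CPM, and highest in Gzmb-rich cells, at 1410.03 and 2053. Ms4a6b was likewise lowest in cycling cells (372 and 480.5), and it was at 570.4 and 866 in Gzmb-rich cells. Ms4a4c had another order in WT, with 84.1 in Xcl1 cells, 77.2 in the rest, 42.6 in cycling and 39.1 in Gzmb-rich cells. In Ifnar1-SA it was at 176, 228, 106 and 156 in these states. Each of the 3 genes was higher in Ifnar1-SA in each of the 4 states. For Ms4a4c the log2 ratio was widest in Gzmb-rich cells (1.997) and lowest in Xcl1 cells (1.07).

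Treg cells showed the same contrast between cycling and other cells. In the 117 WT and 102 Ifnar1-SA cycling droplets, Ms4a4b was at 144 and 349 CPM, against 366 and 703 in the 227 and 385 others. Ms4a6b was at 199 and 436 in cycling cells and at 439 and 731 in the others. Cycling cells were a smaller part of the Ifnar1-SA Treg cells. Within cycling cells the library ratio was 1.27 for Ms4a4b and 1.13 for Ms4a6b, and within the others 0.94 and 0.73.

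From low to high C1q share among monocytes and macrophages, Ms4a7 had the widest gradient of the 5 myeloid-expressed members. Monocytes and macrophages of both libraries were pooled and cut into 5 bins by the share of C1qa, C1qb and C1qc, complement genes that mark mature tissue macrophages. Ms4a7 was at 405, 998, 1349, 1743 and 2307 CPM from the lowest to the highest bin in WT and at 724, 1659, 2198, 2687 and 3024 in Ifnar1-SA. Ifnar1-SA was higher in every bin, and the log2 ratio went from 0.84 in the lowest to 0.39 in the highest. Ly6c2, a monocyte marker, went the other way, from 2187 to 109 and from 2619 to 229. The gates fix the course of Ly6c2 in part, since monocytes were taken for Ly6c2 and low C1q.

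**Figure D5:**
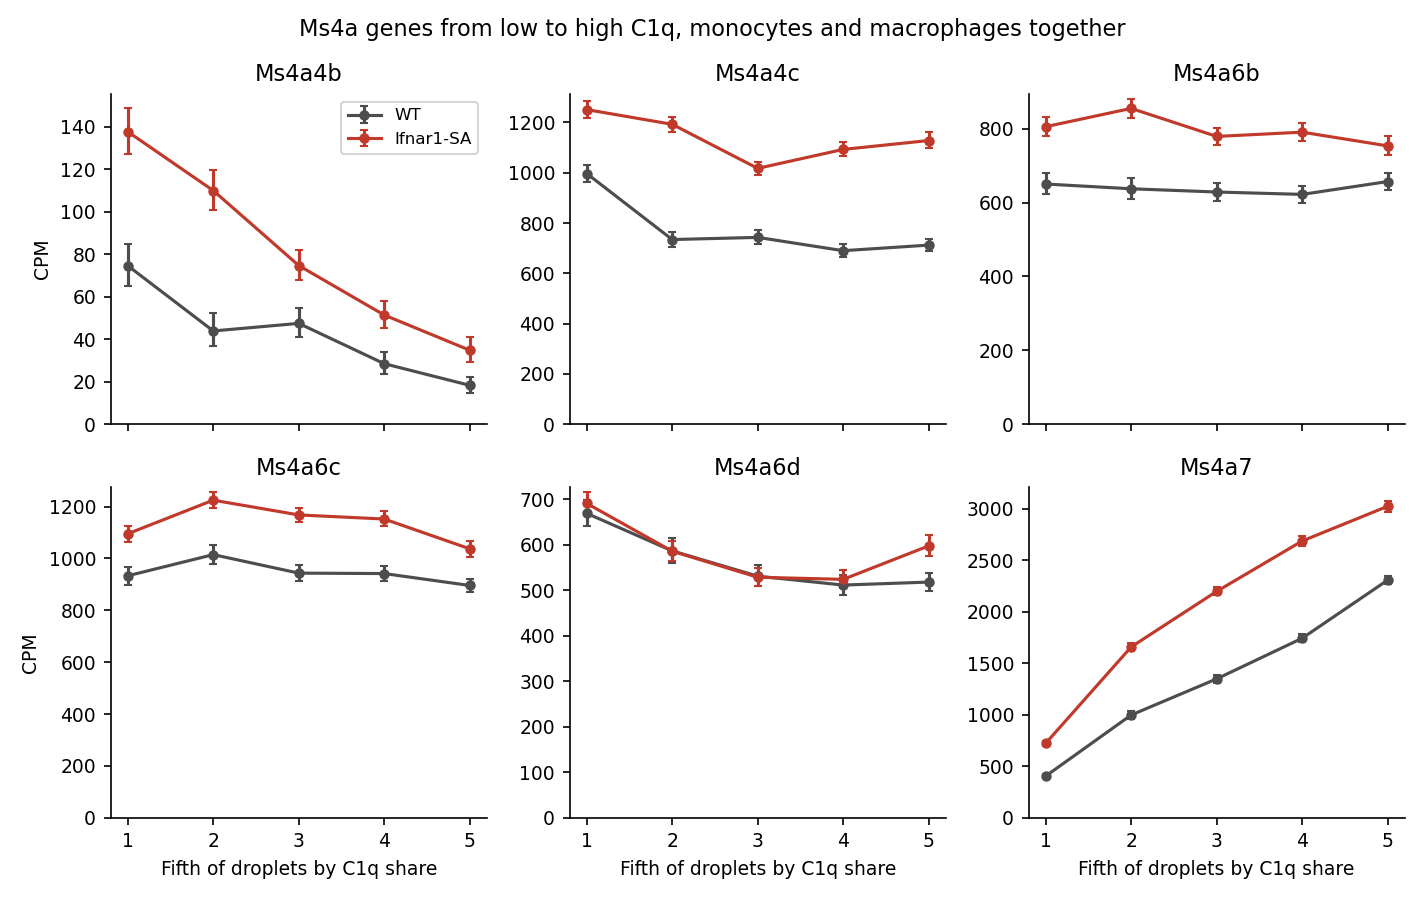
Level of each Ms4a gene (CPM) in 5 bins of monocytes and macrophages by their share of C1q transcripts, 1 line per library. Ms4a7 goes from 405 to 2307 in WT and from 724 to 3024 in Ifnar1-SA, while Ms4a4b goes from 74.6 to 18.3 and from 138 to 34.9.

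The other members did not follow C1q upward. Ms4a4c went from 997 in the lowest bin to 712 in the highest in WT and from 1251 to 1128 in Ifnar1-SA. Ms4a6d went from 669 to 518 and from 691 to 598. Ms4a6b (650.2 to 657, and 805 to 753) and Ms4a6c (933 to 896, and 1095 to 1037) stayed nearly level. Ms4a4b went from 74.6 to 18.3 and from 138 to 34.9.

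Macrophages differed among themselves by other programs as well. When they were grouped by transcripts of Mrc1, Folr2 and F13a1, genes of resident-type macrophages, Ms4a4c went from 981 CPM in droplets with none of them to 532 in the highest group in WT, and from 1174 to 922.5 in Ifnar1-SA. By class II genes (H2-Aa, H2-Ab1 and H2-Eb1, which present antigen), Ms4a7 went from 1905 in the lowest of 3 groups to 1277 in the highest in WT and from 2513 to 1399 in Ifnar1-SA. The library ratio of Ms4a7 was 0.40 and 0.42 in the lower 2 groups and 0.13 in the highest. By Arg1 and Spp1, genes of lipid-associated and repair-type macrophages, Ms4a6d went from 426 in droplets with neither to 622 in the highest group in WT and from 457 to 655 in Ifnar1-SA. Thus Ms4a4c was lower where resident-type genes were high, Ms4a7 was lower where class II was high, and Ms4a6d was higher where Arg1 and Spp1 were high, each in both libraries.

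Since the Ifnar1-SA library held cells of both sexes, its droplets were also split by Xist and Y-linked transcripts. Ms4a4b in CD8 T cells was at 1543 CPM in the 449 Xist droplets and 1726 in the 131 Y-linked droplets, both above the 1139 of WT. Ms4a4c there was at 164 and 114, above 54.7. Ms4a6b was at 686 and 633, above 459. In macrophages, Ms4a4c was at 1067 in 1333 Xist droplets and 1094 in 218 Y-linked droplets, against 700 in WT, and Ms4a7 was at 2226 and 2129, against 1568. In Treg cells, where 23 droplets were Y-linked, Ms4a4b was at 571 and 374, against 237, and Ms4a6b at 625 and 391.6, against 299. The members just named were above WT in the Ifnar1-SA droplets of each sex. Ms4a6d was not: in Y-linked droplets it was at 28.3 in CD8 T cells and 494 in macrophages, against 29.96 and 524 in WT. For Ms4a6c in CD8 T cells (14.2, interval 7.06 to 25.3) and Ms4a4c in Treg cells (23.4, interval 6.37 to 59.9), the Y-linked interval included the WT level of 10.1 and 16.8. So did that of Ms4a7 in CD8 T cells (6.17 to 23.7, WT 8.24) and of Ms4a4b in monocytes (63.8 to 154, WT 89.7). In Treg cells the same held for Ms4a6c (12.9 to 76.3, WT 21.3), Ms4a6d (9.49 to 68.2, WT 9.78) and Ms4a7 (6.37 to 59.9, WT 10.5).

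A droplet usually held several members at once in the myeloid gates and fewer in T cells. At 2000 UMIs per droplet, the median number of members with a UMI was 2 in CD8 T cells, 1 in Treg cells, and 4 in macrophages and in monocytes, in both libraries. Treg droplets without any member made up 36.4% in WT and 15.0% in Ifnar1-SA, and CD8 T droplets without any 9.65% and 2.11%. Droplets with 4 or more members made up 54.8% and 70.1% of macrophages and 62.7% and 75.0% of monocytes. All 6 were seen in 1.01% and 4.03% of macrophages, a number that includes Ms4a4b, whose level there lay near that carried by T cell RNA.

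Of the other 13 Ms4a genes, 3 reached 20 CPM in any of the 4 gates. Ms4a8a was at 45.2 and 46.5 CPM in WT and Ifnar1-SA monocytes and at 8.04 and 7.92 in macrophages. Ms4a4a was at 19.7 and 24.8 in monocytes and 15.2 and 12.9 in macrophages. Ms4a14 was at 15.9 and 21.3 in macrophages. Ms4a1, the gene of CD20, did not exceed 0.39 CPM, and no droplet passed the B cell gate in either library, which allows a share of up to 0.0909% in WT and 0.0737% in Ifnar1-SA. The related membrane genes Tmem176a and Tmem176b went against the members: in macrophages they were at 213 and 336 CPM in WT and at 115 and 205 in Ifnar1-SA. Of all Ms4a UMIs in kept droplets, Ms4a7 held 27.4% in WT and 30.5% in Ifnar1-SA, and Ms4a4b 11.1% and 7.97%.

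Genes whose levels most resembled those of each member were sought over 12 points, 6 gates in 2 libraries, among 4365 genes, by Pearson's r of log2(CPM + 1). The gates were CD8 T, Treg, conventional CD4 T, macrophage, monocyte and tumour-like. All 6 members were at 3.37 CPM or below in the tumour-like points, so each r includes a contrast of immune and tumour-like droplets. No r was computed without those points. The points share libraries and gates, so r is a description. Ms4a4b was most like Gm8369, BE692007 and Tnfaip3 (r 0.99 each). Ms4a7 was most like Fgd2, Apoe and Slamf9 (r 0.99 each), Apoe being the lipid carrier abundant in macrophages. Ms4a6b was most like Epsti1, Laptm5 and Cyth4 (r 0.998 for Epsti1), and Ms4a6c like Milr1, H2-DMa and H2-Eb1 (r 0.99). Ms4a4c was most like Lilr4b, Cln3 and AB124611 (r 0.98), and AB124611 also led the list for Ms4a6d, ahead of Sh3bp2 and Ctsc. Among the members themselves, Ms4a6c and Ms4a6d were most alike (r 0.977), then Ms4a4c and Ms4a6d (0.963) and Ms4a6c and Ms4a7 (0.959). Ms4a4b and Ms4a7 had r 0.0775 over points that include the tumour-like gate, where both were low. Among the immune gates, Ms4a4b was high in T cells and Ms4a7 in macrophages.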

How the data were processed

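The study measured RNA of single cells by 10x droplet sequencing in 1 library from WT mice and 1 from Ifnar1-SA mice. The deposited values are raw UMI counts. Per the file headers they came from Cell Ranger 4, and the submitters' processing notes name mm10 as build. Which annotation and settings were used was not given in the sources used here. These matrices list 6794880 barcodes and were not filtered for cells.

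The 6 members, the gates and the gene lists were chosen with earlier results of these data known. Named genes are all 6 members, other Ms4a and Tmem176 genes at 20 CPM or more in a gate, and the 3 genes most like each member. One gene of the interferon-inducible list is not reported here on its own. Barcodes of 1000 UMIs and 500 genes or more with 10% or less of mitochondrial UMIs were kept, and UMIs were summed per gate and library and divided by the summed total (CPM). Levels have exact Poisson intervals, shares exact Clopper-Pearson intervals and ratios exact conditional binomial intervals, all at 95% and for counting error only. No test across samples was possible. Background shares count genes at 20 CPM or more in at least 1 of the groups compared, with 30 UMIs or more over both together. For comparisons of cell types this had to hold in each library. The ratio code was tested on simulated data.

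Doublets were treated by leaving out droplets of more than 1 gate. Scrublet's own limit marked 0% and 0.04% of droplets and was not used. Its 132 and 200 top-scored droplets were removed as an alternative. The carried level of a member is its CPM in the source lineage times the ratio of marker levels, with 3 references each (Apoe, C1q and Csf1r from macrophages; Cd3e, Cd3g and Trac together, Trbc2 and Cd3d from CD8 T cells). Thinning drew 2000 UMIs per droplet without replacement. In total 18 alternatives were run, 17 planned and 1, the subtraction of carried RNA, added after the data were seen. That subtraction used 1 reference per gate: Apoe in T cell gates, and Cd3e, Cd3g and Trac together in myeloid gates. Promoter windows come from RefSeq (GRCm38.p6), with entries matched by symbol for 5 of the 6 members. Gene models, coding sequences and transcript ends come from GENCODE M21. Work was done in Python 3.11.15 with numpy 2.4.6, scipy 1.17.1, pandas 2.3.3, scanpy 1.11.5, Biopython 1.88 and matplotlib 3.10.9, and the TMM factors in R 4.3.3 with edgeR 4.0.16, used for scaling only.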

Additional observations from a re-analysis of the deposited data

Results flagged for a closer look

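The members were also found in barcodes outside every comparison, those with 1 to 100 UMIs, which are mostly droplets without a cell. There were 1074450 such barcodes in WT and 1247705 in Ifnar1-SA, holding 5408766 and 5394939 UMIs. They were picked out because a signal there exceeds the limit that a count of 0 allows, and there is no control sample for it. In WT, Ms4a7 was at 625 CPM in these barcodes, Ms4a6b at 418, Ms4a6c at 324, Ms4a4c at 271, Ms4a6d at 245 and Ms4a4b at 191. In Ifnar1-SA, Ms4a7 was at 852, Ms4a6b at 531, Ms4a4c at 472, Ms4a6c at 436, Ms4a6d at 264 and Ms4a4b at 226. Each of the 6 members was higher in Ifnar1-SA in these barcodes. They belong to the same 2 libraries, so this is no separate observation. The other genes looked at there were lower in Ifnar1-SA: C1qa (2964 in WT, 2784 in Ifnar1-SA), Lyz2 (4026, 3109) and Cd3e (138, 121). No group was examined for a library that stands apart, since each has 1.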

How the results depend on the processing

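Of 99 alternative counts of members, 84 stayed within 1.5 times the reported one and 15 did not. In CD8 T cells the count of 4 became 2 with members under 50 CPM left out. In macrophages the count of 2 became 1 under TMM and 1 under median-of-ratios factors. In monocytes the count of 1 became 2 with stricter gates, with thinned droplets, with the mean of per-droplet CPM and without the 5 highest droplets, and 0 with a mitochondrial maximum of 5%, under TMM, under median-of-ratios factors and with Xist droplets only. TMM and median-of-ratios factors moved all genes in monocytes by 0.14 and 0.16 (log2). Between macrophages and CD8 T cells the count of 5 became 1 with the gates as written, which let in droplets of several gates. Between monocytes and macrophages the count of 1 became 2 without droplets holding T cell transcripts and 2 with stricter gates. Between CD8 T and Treg cells the count of 3 became 1 with the gates as written. Of 730 single-member values, 545 stayed, 180 moved and 5 reversed, a reversal being a change of sign in a value past its fold threshold. Ms4a4b reversed between the libraries with carried RNA by Cd3e, Cd3g and Trac subtracted, at -1.48 in macrophages and -1.11 in monocytes. The other reversals, with the gates as written, were CD8 T over Treg for Ms4a4c (-0.32 in WT, -0.11 in Ifnar1-SA) and Ms4a6d (-0.37 in WT). Values short of the threshold changed sign too. Between the libraries, 13 of 370 values had the other sign, the 2 reversals among them. They included Ms4a6d with Y-linked droplets (-0.08 in CD8 T cells and in macrophages) and, in monocytes under median-of-ratios factors, Ms4a4c (-0.07), Ms4a6b (-0.01) and Ms4a6c (-0.07). Between gates, Ms4a6b in macrophages over CD8 T cells of Ifnar1-SA went from 0.16 to -0.10 with the mean of per-droplet CPM, and Ms4a7 in CD8 T over Treg cells of WT from -0.35 to 0.21 with thinned droplets. Ms4a6d in CD8 T over Treg cells of Ifnar1-SA, at -0.04, reached 0.52 without droplets holding macrophage transcripts. The cause was not tested beyond the construction of each alternative. Across the alternatives, Ms4a4c had a log2 ratio between libraries of 1.07 to 1.61 in CD8 T cells, 0.48 to 2.80 in Treg cells and 0.55 to 0.65 in macrophages, and Ms4a7 in macrophages 0.41 to 0.60. No paired analysis was possible because each genotype has 1 library.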
